A study of Mus musculus with 6 samples.

Results

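Guanylate-binding proteins (GBPs) and immunity-related GTPases (IRGs) were followed here in neutrophils sorted from the tumour-bearing uterus of mice held in extra oxygen or in ambient air. The members were 9 genes taken by their GENCODE M21 identifiers: the GBPs Gbp2, Gbp3, Gbp4, Gbp5, Gbp6 and Gbp7, and the IRGs Irgm1, Igtp and Iigp1. Of these 9, 7 had a row in the count tables, among 43432 gene identifiers in all. The M21 identifiers of Gbp5 (ENSMUSG00000105504) and Gbp6 (ENSMUSG00000104713) matched no row, so both are not analysed here. All 7 that were found passed the filter on low counts that left 12908 genes for testing.

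All mice were of the PRPL line, in which Cre and floxed alleles give tumours of the uterus, on the C57BL/6 strain, and 4 weeks old at the end. The Cre recombinase sits under the control of the progesterone receptor gene, so recombination takes place in cells of the uterus that use that gene, in both groups alike. The hyperoxia group lived at 60% oxygen for 10 days, from postnatal day 18 to 28, and the normoxia group stayed at ambient oxygen over the same days. Polymorphonuclear cells, gated as CD45+ Ly6Ghi CD11b+, were sorted from digested whole uteri, and each group had 3 libraries. The libraries held 44152840, 61715617 and 44803171 counts in hyperoxia and 44870447, 42479505 and 38683293 in normoxia. Levels are given as CPM, counts scaled to a common library size, on which 3 counts were worth 0.047 to 0.0771 CPM. No wild-type or tumour-free group was part of the comparison, and the labels do not say that the libraries of a group came from separate animals, so a p-value here reflects only the spread among these samples, part of which may be technical.

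GBPs and IRGs are GTPases that a cell makes after exposure to interferon, above all interferon-γ, and that gather on the membranes of vacuoles and of bacteria inside the cell. Interferon-γ binds a receptor made of Ifngr1 and Ifngr2, the kinases Jak1 and Jak2 then pass the signal on, and the transcription factor Irf1, which the pathway induces, acts at the promoters of these GTPases. Some GBPs carry a lipid anchor, and the autophagy conjugation proteins direct both families to their targets. Inside the IRG family, Irgm1 and Igtp (also called Irgm3) regulate the others and sit on the cell's own membranes, while Iigp1 (also called Irga6) is an effector that coats parasite vacuoles.

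The GBPs and IRGs fell into 2 sets by level. Gbp2, Gbp3, Gbp7, Irgm1 and Igtp were well expressed, with 2636 to 52930 counts in every library, while Gbp4 and Iigp1 had 14 to 205 counts. No member passed edgeR's quasi-likelihood test with Benjamini-Hochberg adjustment at 0.05 in either direction, and 0.0% of the 12908 genes tested passed it. With the unadjusted p held to 0.05, 1 of the 7 was higher in hyperoxia and none was lower, beside 9.1% of all genes higher and 3.91% lower. The 1 member was Iigp1. It was also the only member that DESeq2 called, at an adjusted p of 0.000341, where DESeq2 called 3.57% of all genes higher and 0.403% lower. The median log2 difference of the 7 members was 0.16, beside 0.04 over all genes tested, with 5 members above 0 and 2 below.

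**Figure D1:**
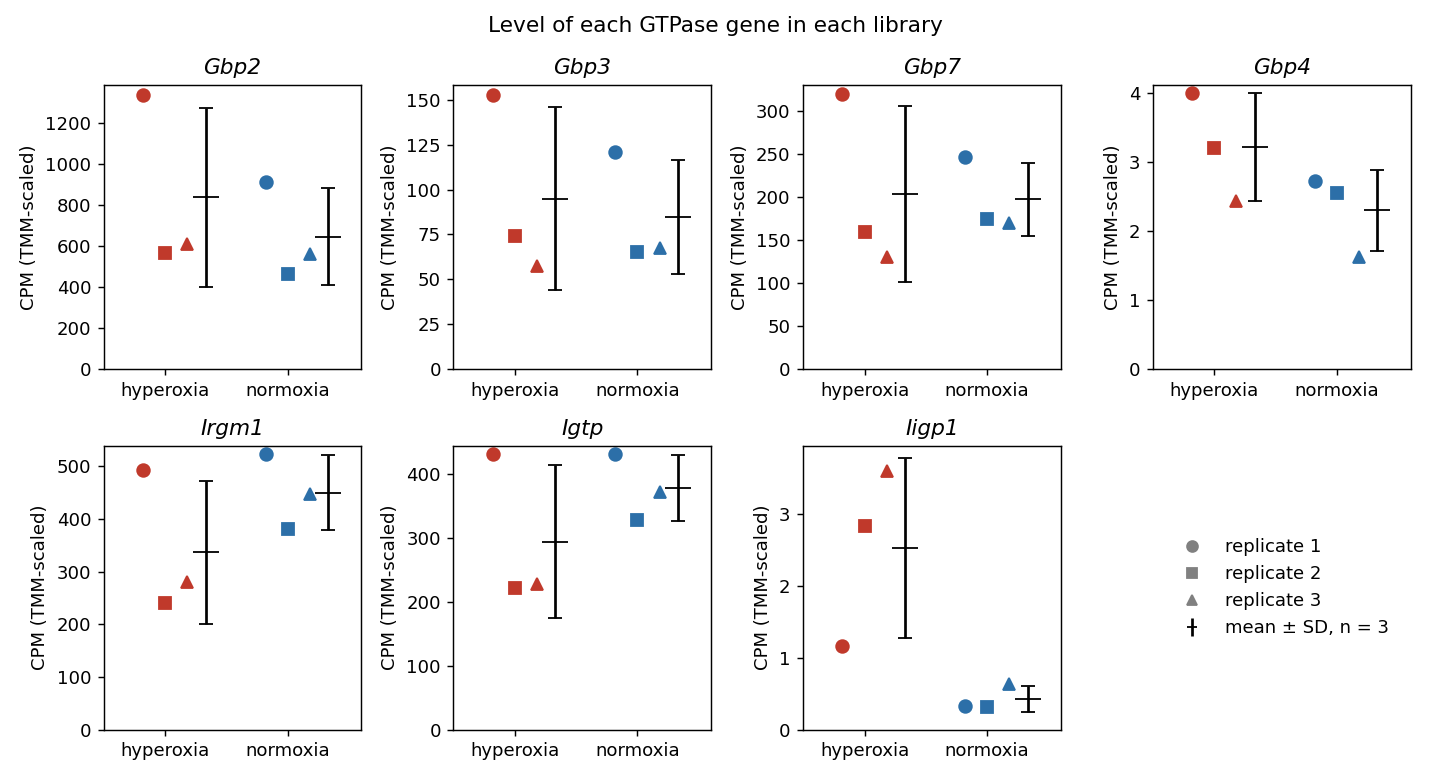
CPM (TMM-scaled) of the 7 measured members in each library, hyperoxia left of normoxia; shapes are replicate numbers, which pair nothing, and the black mark is the mean ± SD (n = 3). Hyperoxia replicate 1 is the highest hyperoxia library of every member except Iigp1, and only in Iigp1 do all hyperoxia libraries lie above all normoxia libraries.

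Per kilobase of exon, Gbp2 was the most abundant member in both groups. It averaged 333 ± 173 CPM per kb in hyperoxia and 257 ± 94.1 in normoxia (SD, n = 3 each). Igtp followed with 145 ± 58.7 in hyperoxia and 186 ± 25.5 in normoxia, and Irgm1 with 58.1 ± 23.4 in hyperoxia and 77.5 ± 12.2 in normoxia. Gbp7 had 36.1 ± 18.1 CPM per kb in hyperoxia and 35.1 ± 7.58 in normoxia, close to Gbp3 with 29.1 ± 15.6 in hyperoxia and 26.0 ± 9.73 in normoxia. Last came Gbp4 with 0.429 ± 0.104 in hyperoxia and 0.306 ± 0.0789 in normoxia, and Iigp1 with 0.435 ± 0.214 in hyperoxia and 0.0733 ± 0.0321 in normoxia. The first 5 places were the same in both groups. Across libraries the ranges of some neighbours in this order overlapped: Irgm1 with Gbp7, Gbp7 with Gbp3 and Gbp4 with Iigp1 in hyperoxia, and Gbp2 with Igtp and Gbp7 with Gbp3 in normoxia. Within a library the order was steadier. Gbp2 lay above Igtp, Igtp above Irgm1, Irgm1 above Gbp7 and Gbp7 above Gbp3 in every library of either group. Gbp4 lay above Iigp1 in hyperoxia replicate 1 and below it in hyperoxia replicates 2 and 3.

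Gbp2 is a lipid-anchored GBP that in mouse cells is recruited to Toxoplasma vacuoles and to cytosolic bacteria. The gene (ENSMUSG00000028270) lies on the plus strand at chr3:142620602-142638008 (GRCm38). It had 1339, 564 and 608 CPM in the hyperoxia libraries, against 914, 465 and 559 CPM in the normoxia libraries. Replicate 1 was the high library in each group, and the groups overlapped. The log2 difference was 0.37 ± 0.40 (SE), with a 95% interval of -0.54 to 1.28, and edgeR's quasi-likelihood test gave an adjusted p of 0.74. Without hyperoxia replicate 1 the difference was -0.11.

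Gbp3 (ENSMUSG00000028268), a neighbour of Gbp2 on the same strand at chr3:142560026-142573209, had 153, 74.2 and 57.6 CPM in hyperoxia, against 121, 65.1 and 67.7 CPM in normoxia. Gbp7 (ENSMUSG00000040253), which in mouse macrophages has been linked to the delivery of oxidase subunits and autophagy proteins to bacteria, lies at chr3:142530342-142550149 on the plus strand. It had 319, 159 and 130 CPM in hyperoxia, against 246, 174 and 170 CPM in normoxia. In both genes 1 library per group stood above the other two, and the remaining hyperoxia libraries lay within or below the normoxia range. The log2 differences were 0.16 ± 0.40 for Gbp3 (95% interval -0.75 to 1.08) and 0.04 ± 0.35 for Gbp7 (95% interval -0.76 to 0.84), and edgeR's adjusted p values were 0.902 and 0.974. Without hyperoxia replicate 1 they were -0.33 for Gbp3 and -0.41 for Gbp7. An annotated pseudogene shares 637 bp, 11.3%, of the exon sequence of Gbp7, and its reads could not be told from those of Gbp7.

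Gbp4 (ENSMUSG00000079363), of the GBP cluster on chromosome 5, was described in mouse cells as a brake on the interferon factor Irf7. It lies on the minus strand at chr5:105115767-105139586. It had 4.0, 3.21 and 2.44 CPM in hyperoxia, against 2.72, 2.55 and 1.62 CPM in normoxia. The lowest hyperoxia library lay among the normoxia libraries. The log2 difference was 0.48 ± 0.33 (95% interval -0.27 to 1.24), and edgeR's adjusted p was 0.576. Gbp4 shares 60 bp of exon with Gbp9 and 61 bp with Gbp8, both on its strand.

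Irgm1 and Igtp had almost the same profile over the 6 libraries. Irgm1 (ENSMUSG00000046879, chr11:48861968-48871683, minus strand), whose loss in mice impairs resistance to mycobacteria, had 492, 240 and 280 CPM in hyperoxia, against 523, 381 and 447 CPM in normoxia. Igtp (ENSMUSG00000078853, chr11:58199556-58207591, plus strand) had 431, 222 and 228 CPM in hyperoxia, against 431, 328 and 371 CPM in normoxia. In both genes, hyperoxia replicates 2 and 3 lay below every normoxia library and hyperoxia replicate 1 lay within the normoxia range or level with its top. The log2 differences were -0.42 ± 0.30 for Irgm1 (95% interval -1.11 to 0.28) and -0.36 ± 0.30 for Igtp (95% interval -1.04 to 0.32), and edgeR's adjusted p values were 0.603 and 0.652. Without hyperoxia replicate 1 they were -0.77 and -0.71, with adjusted p of 0.151 and 0.153 in edgeR and of 0.016 and 0.0147 in DESeq2. That DESeq2 fit called 1112 genes in all. Leaving out any other library gave both genes an adjusted p of 0.776 or more in DESeq2.

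Iigp1 (ENSMUSG00000054072), the vacuole-coating effector, was the member that differed most. It lies on the plus strand at chr18:60376027-60392634. It had 46, 181 and 171 counts in the hyperoxia libraries, against 14, 14 and 25 counts in the normoxia libraries. In CPM these were 1.16, 2.84 and 3.6 in hyperoxia, against 0.328, 0.311 and 0.642 in normoxia. All 3 hyperoxia libraries lay above all 3 normoxia libraries, and hyperoxia replicate 1, the highest for the other members, was the lowest of its group here. The fitted difference was 5.94-fold, a log2 difference of 2.57 ± 0.53 (95% interval 1.35 to 3.79), for which edgeR's test across all genes gave an adjusted p of 0.132. Leaving out hyperoxia replicate 1 gave 2.94 with an adjusted p of 0.0422 in edgeR, in a fit that called 176 genes in all. Leaving out any other library gave an adjusted p of 0.15 to 0.542 for Iigp1 in edgeR. DESeq2 called Iigp1 higher whichever library was left out, with an adjusted p of 1.09e-06 to 0.0268. Those DESeq2 fits called 196 to 1112 genes in all. Non-overlap in the higher direction was seen in 1 of the 7 members and in 9.57% of all genes tested, and in the lower direction in none of the members and in 10.3% of all genes. With 3 libraries against 3, an exact two-sided permutation test of a single gene cannot give a p under 0.1.

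**Figure D2:**
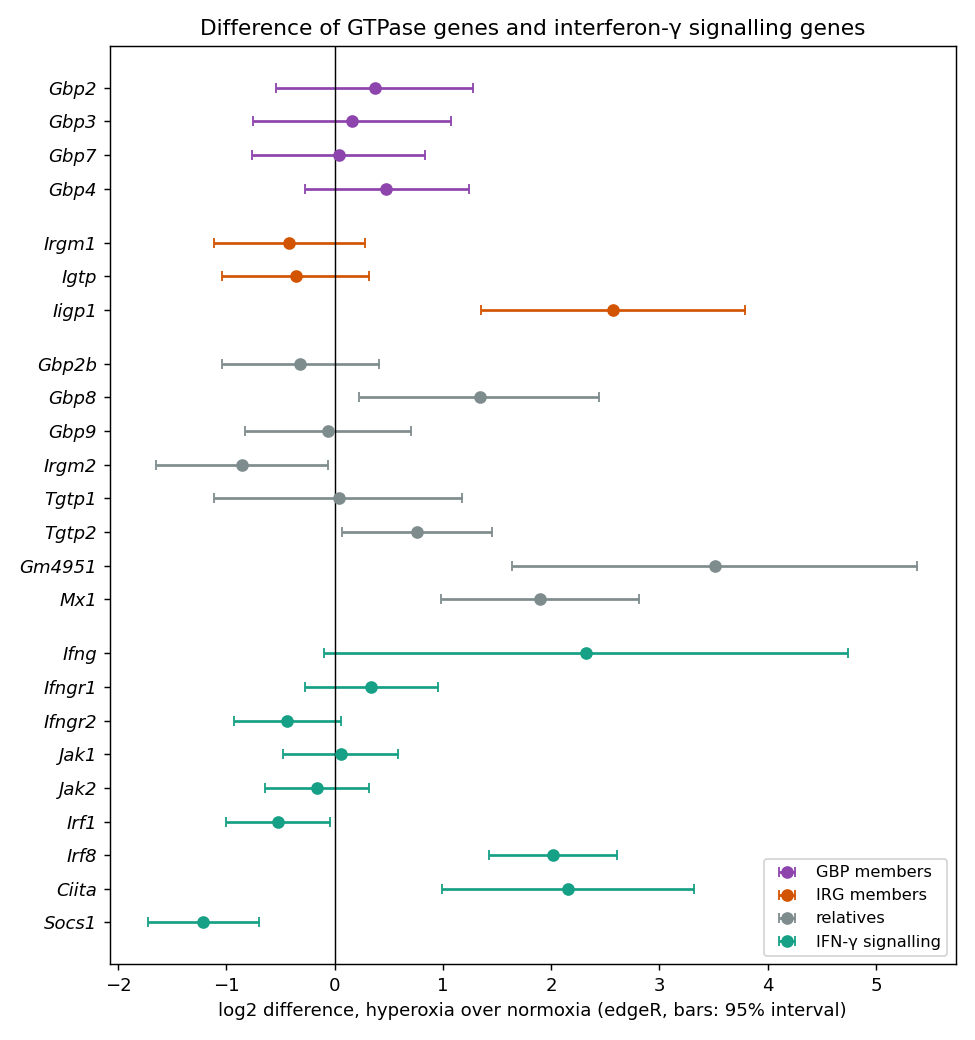
Log2 difference, hyperoxia over normoxia, with the 95% interval from edgeR's quasi-likelihood fit, for the measured members and for named relatives and interferon-γ signalling genes. The intervals of Gbp2, Gbp3, Gbp7, Gbp4, Irgm1 and Igtp include 0, while that of Iigp1 runs from 1.35 to 3.79.

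The members did not keep a fixed ratio to each other. Gbp2 made up 48.9%, 44.6% and 46.4% of the summed CPM of the 7 members in the hyperoxia libraries, against 40.8%, 32.8% and 34.6% in the normoxia libraries. Irgm1 made up 18.0%, 19.0% and 21.4% in hyperoxia, against 23.4%, 26.9% and 27.6% in normoxia, and Igtp 15.7%, 17.6% and 17.4% in hyperoxia, against 19.3%, 23.2% and 23.0% in normoxia. The groups did not overlap in the shares of Gbp2, Irgm1, Igtp and Iigp1 and overlapped in those of Gbp3, Gbp4 and Gbp7. The shares of the 7 members depend on one another, and no such share exists for all genes to set beside them. The 7 members together summed to 2740, 1265 and 1309 CPM in hyperoxia, against 2239, 1418 and 1617 CPM in normoxia, with overlap.

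A ratio of counts within a library needs no library scaling, and Igtp was taken as the denominator after its values were seen. Gbp2 had 3.11, 2.53 and 2.67 counts per count of Igtp in hyperoxia, against 2.12, 1.42 and 1.5 in normoxia. Gbp7 had 0.74, 0.714 and 0.571 in hyperoxia, against 0.57, 0.531 and 0.459 in normoxia. The hyperoxia ratios lay above the normoxia ratios for Gbp2, Gbp7, Gbp4 and Iigp1, in the case of Gbp7 only by 0.571 against 0.57, while those of Gbp3 overlapped. Over all other genes tested, the ratio to Igtp was higher without overlap in 14.9% and lower in 0.798%. Irgm1 had 1.14, 1.08 and 1.23 counts per count of Igtp in hyperoxia, against 1.21, 1.16 and 1.2 in normoxia, so that pair kept its ratio within a narrow range in all 6 libraries. Irgm2, the third of the regulator IRGs, had 0.136, 0.119 and 0.111 in hyperoxia, against 0.187, 0.166 and 0.171 in normoxia, and was lower without overlap.

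**Figure D3:**
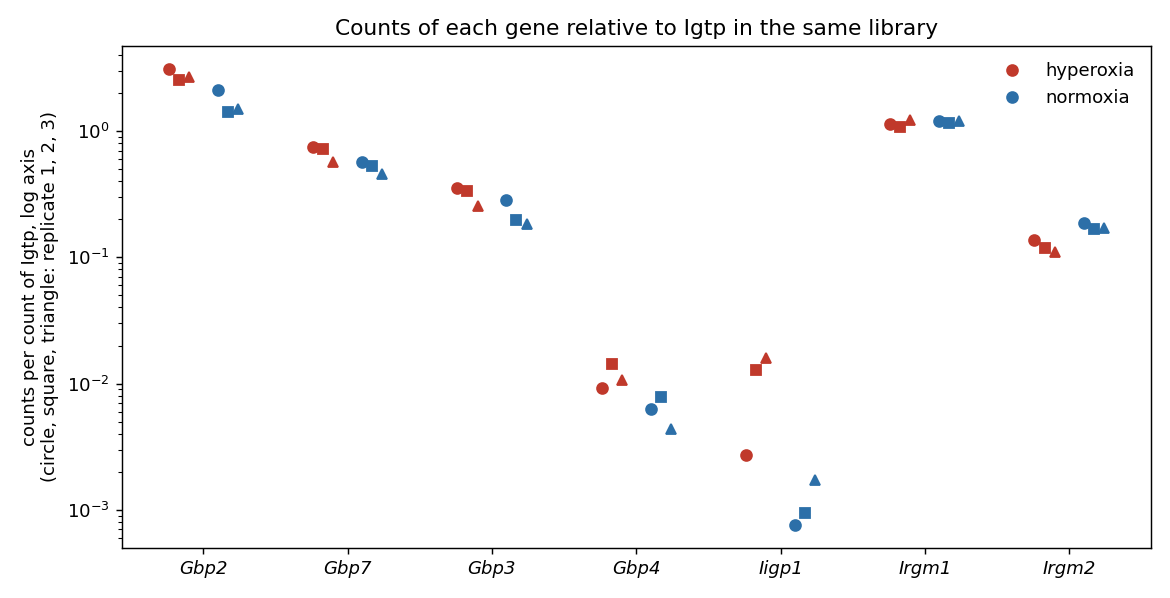
Counts of each gene per count of Igtp in the same library, on a log axis, with hyperoxia left of normoxia and shapes for replicate numbers. The Gbp2 ratios of the hyperoxia libraries run from 2.53 to 3.11 and those of the normoxia libraries from 1.42 to 2.12, while Irgm1 stays between 1.08 and 1.23 in all 6.

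The likeness of profiles was measured as the root mean square difference of log2 CPM over the 6 libraries, after centring each gene on its own mean. Irgm1 and Igtp were the closest pair of members at 0.0633, followed by Gbp3 and Gbp7 at 0.146 and by Gbp2 and Gbp3 at 0.186. Such closeness was not particular to the family. Kdm2a, at 0.0407, was closer to Igtp than Irgm1 was, and Ttc39c, at 0.0933, was closer to Gbp2 than Gbp3 was. Gbp2 stood 0.421 from Igtp. Iigp1 was between 1.28 and 1.66 from every other member. Outside the members, the 5 genes closest to the members' mean profile were Dgat2 at 0.0307, Snx18 at 0.0516, Zeb1 at 0.0734, Rngtt at 0.0788 and Lgals9 at 0.0817. That mean profile weighs each member equally, so Iigp1 shapes it as much as Gbp2 does. These are descriptions over 6 libraries, and all genes of a library share its depth and composition.

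Promoters of the members share a short motif that interferon regulatory factors are known to bind, and its place is shown because the members on chromosomes 3 and 11 tracked one another in part. RefSeq windows (GRCm38.p6) from 250 bases before to 50 bases after a start were available for 6 members, namely Gbp2, Gbp3, Gbp5, Gbp7, Irgm1 and Igtp. The motif searched, called ISRE-like here, was 2 GAAA blocks with 2 bases of any kind between them, on either strand, so that it reads as 2 TTTC blocks on the other. All 6 genes had at least 1 match, beside 3.44% of the 32851 windows in the table and 3.99% of 27025 genes with a window. A second window of Gbp3 had no match. Another motif searched, called GAS-like here, was TTC and GAA with 3 bases of any kind between them. It was found in 3 of the 6 members, beside 9.55% of all genes with a window. The stretches around the ISRE-like match follow, 5′ to 3′ on the gene's strand, with the matching bases in capitals.
Gbp2, chr3:142620584-142620633, plus strand: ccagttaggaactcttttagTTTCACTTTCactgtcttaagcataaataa
Gbp3, chr3:142559979-142560034, plus strand: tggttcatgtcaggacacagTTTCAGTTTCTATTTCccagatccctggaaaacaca
Gbp5, chr3:142496749-142496798, plus strand: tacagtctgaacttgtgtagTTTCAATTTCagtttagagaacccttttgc
Gbp7, chr3:142530263-142530312, plus strand: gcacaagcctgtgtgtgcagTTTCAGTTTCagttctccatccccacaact
Irgm1, chr11:48871415-48871470, minus strand: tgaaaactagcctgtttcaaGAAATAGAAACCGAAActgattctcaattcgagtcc
Igtp, chr11:58199502-58199551, plus strand: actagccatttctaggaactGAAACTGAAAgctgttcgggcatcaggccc
Irgm2, chr11:58214893-58214942, plus strand: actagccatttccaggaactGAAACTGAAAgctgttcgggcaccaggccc

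The 4 GBP stretches carried the motif in the TTTC orientation and Irgm1, Igtp and Irgm2 in the GAAA orientation. The first matching base lay at -59 from the start base in Gbp2, -45 in Gbp3, -165 in Gbp5, -53 in Gbp7, -30 in Irgm1, -34 in Igtp and -64 in Irgm2. These distances are from the RefSeq start of the window. It differs from the M21 gene start in some genes, as in Gbp2 and Irgm1, where the match lies inside the M21 gene. Gbp3 and Irgm1 each held 2 matches that share a TTTC or GAAA block. Irgm2 is shown because its stretch matched that of Igtp at 48 of 50 bases, and because its counts relative to Igtp were lower in hyperoxia. Of the type I interferon targets with a window, 11 of 18 had the ISRE-like motif. A match describes letters in a window and not a bound site, and Gbp2 and Igtp, whose ratio differed between the groups, both had it.

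Relatives of the members were counted from a list of 17 GBP, IRG and Mx genes, of which 11 were tested. None passed edgeR's adjusted threshold. DESeq2 called 2 higher and 0 lower, beside 3.57% and 0.403% of all genes tested. At the unadjusted threshold 4 were higher and 1 was lower, beside 9.1% and 3.91% of all genes tested. The median log2 difference of the tested relatives was 0.04. Mx1, a dynamin-like antiviral GTPase whose allele in C57BL/6 mice is known to be defective, had 5.21, 9.4 and 3.9 CPM in hyperoxia, against 1.94, 1.15 and 1.88 CPM in normoxia. Its groups did not overlap, and its log2 difference was 1.90 ± 0.40 (adjusted p = 0.134 in edgeR, 0.000769 in DESeq2). The gene model Gm4951 had 0.405, 0.533 and 1.62 CPM in hyperoxia, against 0.0702, 0.0222 and 0.128 CPM in normoxia. The normoxia levels of Gm4951 rest on 3, 1 and 5 counts, so its fitted log2 difference of 3.51 ± 0.82 depends on few reads (adjusted p = 0.151 in edgeR, 0.00422 in DESeq2). For Gm4951 this was 2.66 without hyperoxia replicate 3 and 4.18 without normoxia replicate 3. Gbp8, of the chromosome 5 cluster, had 0.607, 0.643 and 1.12 CPM in hyperoxia, against 0.304, 0.244 and 0.385 CPM in normoxia, a log2 difference of 1.34 ± 0.48 (adjusted p = 0.309 in edgeR).

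Tgtp2, an IRG effector that shares near-identical sequence with Tgtp1, had 3.85, 4.37 and 3.07 CPM in hyperoxia, against 2.81, 1.82 and 2.06 CPM in normoxia, without overlap (adjusted p = 0.349 in edgeR). Tgtp1 had a log2 difference of 0.04 ± 0.50, and how reads were split within that pair is not known. Of the 11 tested relatives, 4 had every hyperoxia library above every normoxia library (Gbp8, Tgtp2, Gm4951 and Mx1), beside 9.57% of all genes tested, and 0 had the reverse. The other low-level relatives, Tgtp1, Mx2, Irgq and Gvin1, overlapped, Mx2 with 5.36, 4.94 and 2.13 CPM in hyperoxia, against 3.37, 1.62 and 2.29 CPM in normoxia. Irgm2 went the other way, with 58.4, 26.4 and 25.3 CPM in hyperoxia, against 80.5, 54.4 and 63.7 CPM in normoxia. Its log2 difference was -0.85 ± 0.35 (adjusted p = 0.359 in edgeR), and hyperoxia replicate 1 again lay within the normoxia range. Without that library the difference was -1.33 (adjusted p = 0.0561 in edgeR, 2.27e-05 in DESeq2). Leaving out any other library gave Irgm2 an adjusted p of 0.431 to 0.695 in edgeR and of 0.399 to 0.7 in DESeq2. Irgm2 and Igtp share 162 bp of annotated exon, 8.01% of that of Igtp.

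Gbp2b (the gene of mouse GBP1), with a log2 difference of -0.32 ± 0.32, and Gbp9, with -0.06 ± 0.34, had overlapping groups, and Gbp11 did not reach the count needed for testing. Gbp10 matched no row. For Gbp6, the nearest stand-in in the tables was the gene model Gm43302, chosen after its values were seen, which covers 29.0% of the exon sequence of Gbp6 and also shares 1792 bp with Gbp10. Gm43302 had 35, 47 and 25 counts in hyperoxia, against 22, 7 and 2 counts in normoxia. Its log2 difference was 1.55 ± 0.74 (adjusted p = 0.414 in edgeR), and its reads could come from either gene. Summed over neighbours, the 4 GBP genes measured on chromosome 3 had 1844, 811 and 818 CPM in hyperoxia, against 1317, 728 and 825 in normoxia. The 5 rows on chromosome 5 (Gbp4, Gbp8, Gbp9, Gbp11 and Gm43302) had 68.1, 27.1 and 43.9 CPM in hyperoxia, against 49.6, 47.4 and 41.7 in normoxia, most of it from Gbp9, with 62.6, 22.5 and 39.8 CPM in hyperoxia, against 46.0, 44.5 and 39.6 in normoxia. The 11 IRG genes and gene models on chromosome 11 had 2113, 998 and 1110 CPM in hyperoxia, against 1960, 1330 and 1609 in normoxia, and all 3 sums overlapped between the groups. The largest term on chromosome 11 was Ifi47, an IRG gene outside the members, with 1028, 463 and 527 CPM in hyperoxia, against 813, 490 and 639 in normoxia.

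The interferon-γ pathway upstream of the GTPases was counted from a list of 17 genes, all tested. At the unadjusted threshold 2 were higher and 3 lower in hyperoxia, beside 9.1% and 3.91% of all genes tested. None passed edgeR's adjusted threshold, and DESeq2 called 2 higher and 1 lower, beside 3.57% and 0.403% of all genes. The median log2 difference was -0.14. The ligand gene Ifng, made chiefly by T and NK cells, had 0.127, 0.439 and 3.41 CPM in hyperoxia, against 0.164, 0.244 and 0.385 CPM in normoxia. Only hyperoxia replicate 3 stood clearly above the rest, and the groups overlapped. The log2 difference of Ifng was 2.32 ± 1.06 (adjusted p = 0.4 in edgeR), and 0.13 without hyperoxia replicate 3. Ifngr1, the ligand-binding receptor chain, had a log2 difference of 0.34 ± 0.27. Ifngr2, the signalling chain, had 153, 155 and 109 CPM in hyperoxia, against 205, 185 and 174 CPM in normoxia, lower without overlap (adjusted p = 0.433 in edgeR).

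The kinases had small fitted differences with overlapping groups. The log2 difference was 0.06 ± 0.23 for Jak1 (95% interval -0.48 to 0.59) and -0.16 ± 0.21 for Jak2 (95% interval -0.64 to 0.32). Irf1 had 639, 635 and 718 CPM in hyperoxia, against 942, 836 and 1082 CPM in normoxia. All hyperoxia libraries of Irf1 lay below all normoxia libraries, with a log2 difference of -0.52 ± 0.21 (adjusted p = 0.354 in edgeR). Replicate 1 was not the highest hyperoxia library of Irf1, as it was for Gbp2, Gbp3, Gbp4, Gbp7, Irgm1 and Igtp. Socs1, the feedback inhibitor of the Jak kinases, had 39.6, 31.5 and 29.5 CPM in hyperoxia, against 74.0, 65.4 and 93.7 CPM in normoxia. Its groups did not overlap, and edgeR gave an adjusted p of 0.106 where DESeq2 gave 0.000826.

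The 2 genes of the list that were higher at the unadjusted threshold were Ciita and Irf8, and neither passed edgeR's adjusted threshold with all libraries. Ciita, the master regulator of MHC class II genes, had 0.835, 1.85 and 1.64 CPM in hyperoxia, against 0.187, 0.444 and 0.334 CPM in normoxia (adjusted p = 0.153 in edgeR, 0.00648 in DESeq2). Irf8, of monocyte and dendritic cell development, had 21.9, 38.2 and 36.7 CPM in hyperoxia, against 8.05, 7.12 and 8.71 CPM in normoxia. Its adjusted p was 0.0974 in edgeR and 1.43e-08 in DESeq2. In edgeR it was 0.0227 without hyperoxia replicate 1 and 0.0731 to 0.529 without any other library. DESeq2 called Irf8 higher whichever library was left out, with an adjusted p of 7.06e-19 to 0.000191. In Ciita and Irf8, as in Iigp1, hyperoxia replicate 1 was the lowest hyperoxia library.

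Other interferon-γ targets had a median log2 difference of 0.14 over 22 tested genes. At the unadjusted threshold 2 were higher and 0 lower, beside 9.1% and 3.91% of all genes tested. The 2 higher ones were Slamf8, a receptor of macrophages, with a log2 difference of 2.28 ± 0.50 (adjusted p = 0.14 in edgeR, or 0.0465 without hyperoxia replicate 1, and 0.0016 in DESeq2), and Ly6a, the surface protein Sca-1, with 0.68 ± 0.28 (adjusted p = 0.355 in edgeR). Leaving out any other library gave Slamf8 an adjusted p of 0.157 to 0.542 in edgeR. DESeq2 called Slamf8 higher whichever library was left out, with an adjusted p of 2.35e-05 to 0.0455. Cxcl9, a T-cell chemokine, had 1.19 ± 0.79 with overlapping groups, and 0.15 without hyperoxia replicate 3. The type I interferon targets had a median of -0.19, with 16 of 22 below 0. Beside the same shares of all genes, 1 was higher at the unadjusted threshold and 0 lower. That gene was Ifi44, at 1.14 ± 0.35 (adjusted p = 0.243 in edgeR), while Isg15, a ubiquitin-like modifier, had -0.49 ± 0.31 and Rtp4, an interferon-induced chaperone of receptors, -0.46 ± 0.26. The mean log2 level of the type I list, set to 0 at the normoxia mean, was 0.39, -0.56 and -0.36 in hyperoxia, against 0.20, -0.19 and -0.02 in normoxia. The members' score was 0.76, 0.14 and 0.09 in hyperoxia, against 0.27, -0.21 and -0.07 in normoxia, so replicate 1 was the highest library of its group in both lists. Each of the 7 members weighs equally in that score, so Iigp1, at a log2 difference of 2.57, raises it in hyperoxia despite its few counts. The summed CPM of the members was 2740, 1265 and 1309 in hyperoxia, against 2239, 1418 and 1617 in normoxia.

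Few genes of the machinery that works with the GTPases reached even the unadjusted threshold. With all libraries, neither edgeR nor DESeq2 called any at an adjusted p of 0.05. Over all genes tested, DESeq2 called 3.57% higher and 0.403% lower. Of 11 tested non-canonical inflammasome partners, 0 were higher and 1 was lower at the unadjusted threshold, with a median of 0.3. Over all genes tested, 9.1% were higher and 3.91% lower at that threshold. The lower partner was the DNA sensor Aim2, with 15.6, 12.5 and 18.3 CPM in hyperoxia, against 24.3, 31.2 and 25.9 CPM in normoxia, with edgeR's adjusted p at 0.189. Pycard, the inflammasome adaptor, had a log2 difference of 0.59 ± 0.30 and the sensor Nlrp3 0.67 ± 0.43, both with overlapping groups. In DESeq2 fits without a library, Nlrp3 was called higher without hyperoxia replicate 2 (adjusted p = 0.000172). Aim2 was called lower in DESeq2 without hyperoxia replicate 1 (adjusted p = 0.038) and without hyperoxia replicate 3 (adjusted p = 0.0169). Casp4, the gene of mouse caspase-11, had 0.22 ± 0.22, and Gsdmd, which forms the pyroptotic pore, 0.11 ± 0.26. None of 14 autophagy conjugation genes reached an unadjusted p under 0.05. The lowest p among them belonged to the ubiquitin ligase Traf6 at -0.43, the ATG8 protein Gabarap at -0.35 and Atg16l1, of the conjugation complex, at -0.36. None of 5 prenylation genes reached it either, with Icmt, the methyltransferase that finishes the lipid-anchored end, at -0.51 ± 0.25, the farnesyltransferase alpha subunit Fnta at 0.23 ± 0.29 and the CaaX protease Rce1 at 0.12 ± 0.23.

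The defining neutrophil markers were present in every library, at a summed 60718, 103247 and 32935 CPM in hyperoxia, against 54101, 34938 and 42510 CPM in normoxia. Markers of other cells were also found, and several moved with the groups. At the unadjusted threshold, 11 of 14 monocyte and macrophage markers, 6 of 9 MHC class II and dendritic cell markers, 4 of 11 T and NK cell markers, 3 of 5 B cell markers, 8 of 9 endothelial, 6 of 7 stromal and 5 of 6 smooth muscle markers were higher in hyperoxia, and 0 of 7 epithelial markers. Of the neutrophil markers, 1 of 10 was higher. No marker of any list was lower at that threshold. Over all genes tested, 9.1% were higher and 3.91% lower. No marker in the tables was at 0 in all 6 libraries, and 1 B cell marker was at 0 in all normoxia libraries. The macrophage markers summed to 1930, 2880 and 3067 CPM in hyperoxia, against 1521, 1445 and 1419 in normoxia. The MHC class II and dendritic cell markers summed to 689, 1159 and 2079 CPM in hyperoxia, against 457, 493 and 456 in normoxia. The T and NK cell markers summed to 9.54, 13.9 and 37.5 CPM in hyperoxia, against 7.42, 9.05 and 22.0 in normoxia, and the endothelial markers to 29.3, 71.4 and 48.9 CPM in hyperoxia, against 9.88, 11.4 and 15.3 in normoxia.

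Within hyperoxia, the order of the libraries for Iigp1 (replicate 3, then 2, then 1) was that of the macrophage, MHC class II, T and NK cell and stromal sums. The endothelial, B cell and smooth muscle sums had replicate 2 first, then 3, then 1. Gbp2, Irgm1 and Igtp had replicate 1 first, then 3, then 2, while Gbp7 had replicate 1 first, then 2, then 3. Neither order was that of any of these sums. The epithelial sum, however, had the order of Gbp2, Irgm1 and Igtp in hyperoxia. It was 214, 13.7 and 171 CPM in hyperoxia, against 73.1, 111 and 158 in normoxia. In normoxia these genes had replicate 1 first, then 3, then 2, and the epithelial sum did not. The summed CPM of the type I interferon targets and of both interferon-γ lists had the order of these genes in both groups. The type I sum was 30534, 14778 and 18435 in hyperoxia, against 28868, 21652 and 25369 in normoxia. The bearing of any of these sums on Gbp2, Irgm1 and Igtp was not tested. Iigp1 stood at 1.16 to 3.6 CPM in the hyperoxia libraries, where many markers other than the epithelial ones were also higher. The part of those markers in the difference of Iigp1 was not tested. In bulk samples of sorted cells, a change in the number of cells of a type and a change in RNA per cell cannot be told apart.

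**Figure D4:**
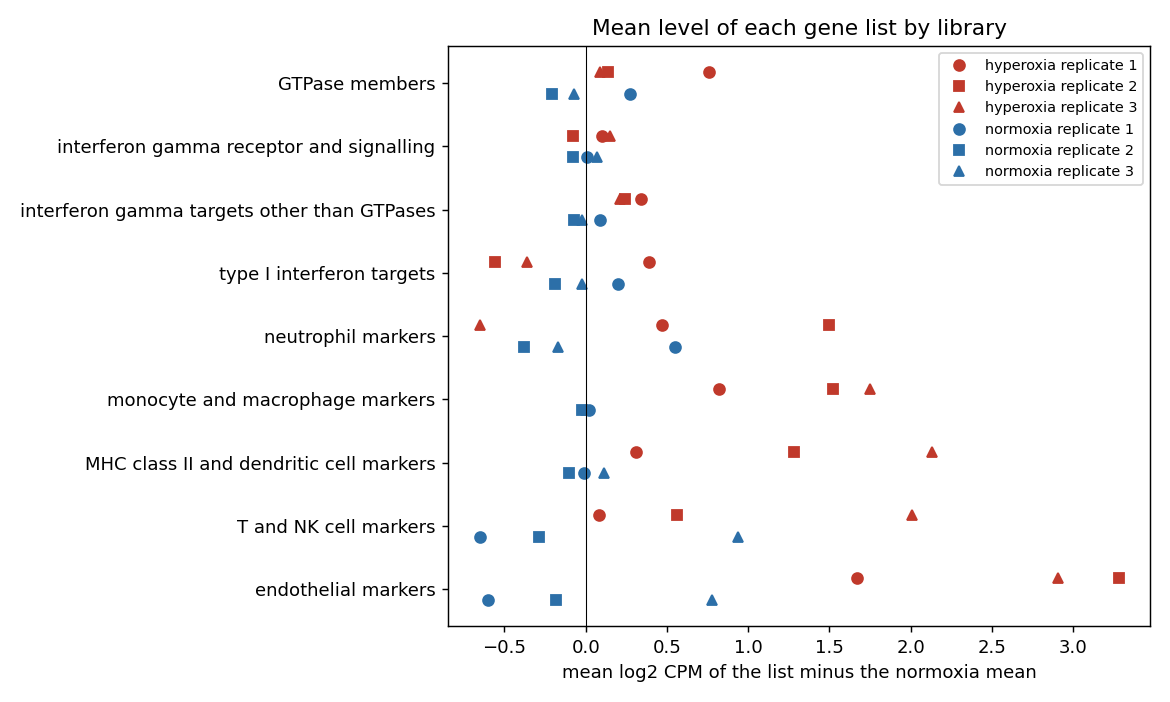
Mean log2 CPM of each gene list in each library, set to 0 at the normoxia mean, with hyperoxia above normoxia in each pair of rows and shapes for replicate numbers. The GTPase score is highest in hyperoxia replicate 1 at 0.76, where the macrophage and MHC class II scores, 0.82 and 0.31, are the lowest of their group. Each gene weighs equally in its list, so Iigp1 raises the GTPase score in hyperoxia.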

How the data were processed

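RNA-seq of 6 libraries of sorted uterine neutrophils was used, 3 per housing condition. The authors deposited raw counts per gene as whole numbers, 1 table per library. The submitters' processing notes name STAR 2.4.2a, GRCm38 and DESeq2 1.16.1. How reads were assigned to genes, with or without strand, and on which annotation is not given in the sources used here, so reads of genes overlapping on opposite strands, or of near-identical GBP and IRG copies, may be misplaced. Of 43432 identifiers, 42548 matched GENCODE M21, which gave symbols, exons and coordinates.

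The test used edgeR 4.0.16 (R 4.3.3) with filterByExpr, TMM scaling, and a robust quasi-likelihood test, two-sided, adjusted by Benjamini-Hochberg over 12908 genes. CPM here use the TMM-scaled library size. Standard errors came from the F statistic. Scores and profiles used log2 CPM with a prior count of 2. Alternatives were DESeq2 1.42.0, limma-voom (limma 3.58.1), other scalings, filters and thresholds, and leaving out each library. The model was tested on simulated data. Counting error alone limits a value at the level of 3 counts. PCR copies are not separate molecules.

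The members, the gene lists and the tests were chosen with earlier results of these data known. The text names all members, the 3 lowest-p genes of each list, and a set fixed by name, of which 1 gene is not reported here. Mx2, Irgq, Gvin1, Ifi47, Kdm2a and Ttc39c were named after their values were seen. The likeness rule took the 5 closest genes whose average log2 CPM reached 3. The ratio to Igtp, the summary of Gm43302 and the DESeq2 fits without a library were added after the data were seen. Promoter windows came from RefSeq (GRCm38.p6), and Gbp4, Gbp6 and Iigp1 had none in that table. Protein sequences were not used here.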

Additional observations from a re-analysis of the deposited data

How the results depend on the processing

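The number of genes called at an adjusted p of 0.05 was 0 in edgeR, limma-voom and with the other scalings. It was 513 with DESeq2, 36 with limma-voom and sample quality weights, 214 with no filter and 30 at a threshold of 0.1, and between 0 and 1112 when a library was left out (0 to 176 with edgeR, 196 to 1112 with DESeq2, each highest without hyperoxia replicate 1). Among the members the count was 0 in edgeR, 1 with DESeq2, 1 with no filter and between 0 and 3 when a library was left out. The 1 member was Iigp1, whose log2 difference stayed between 2.24 and 3.03 over 21 alternatives, with adjusted p from 1.09e-06 to 0.542. The 3 came from DESeq2 without hyperoxia replicate 1, which also called Irgm1 and Igtp lower. Over the pathway lists the count was 0 in edgeR, 6 with DESeq2, 1 with sample quality weights, 5 with no filter, 1 at a threshold of 0.1, and between 0 and 17 when a library was left out. The cause of these differences was not tested.

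Gbp7 changed sign with limma-voom (-0.05) and with library totals (-0.01). When a library was left out, log2 differences changed sign for Gbp2 (-0.16 to 0.79), Gbp3 (-0.38 to 0.6), Gbp7 (-0.46 to 0.31), Jak1 (-0.12 to 0.26), Jak2 (-0.28 to 0.01), Gsdmd (-0.08 to 0.34), Fnta (-0.11 to 0.49), Rce1 (-0.02 to 0.26), Tgtp1 (-0.24 to 0.38) and Gbp9 (-0.5 to 0.26). Irgm1 ranged from -0.81 to -0.2, Igtp from -0.76 to -0.17 and Gbp4 from 0.29 to 0.7, each with its sign kept. Per kb of the longest transcript, in place of all exons, Gbp4 had 0.709 CPM in hyperoxia and 0.506 in normoxia, Irgm1 88.0 in hyperoxia and 118 in normoxia, and Iigp1 0.812 in hyperoxia and 0.137 in normoxia, with the order of members unchanged. Gbp4 alone had a log2 ratio of group means of 0.49, and the sum of the chromosome 5 GBP genes 0.0. No paired analysis was possible because the replicate numbers were given in accession order and pair no samples. With 3 libraries per group and a biological coefficient of variation of 36.3%, differences below about the printed intervals could not be resolved.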
